A study of Homo sapiens with 12 samples.

Results

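The cholesterol and fatty acid synthesis genes followed here are 30 enzymes, regulators and transporters. They lead from acetyl-CoA to cholesterol and to unsaturated fatty acids, or control and move these products. Their transcripts were measured in Ls174T, an established human colorectal carcinoma line, on Affymetrix U133 Plus 2.0 arrays. The members were taken from a list of gene names, chosen with earlier results of these data known. Shares of members set beside shares of all genes are therefore descriptive. Probe sets that the array annotation assigns to exactly 1 gene covered 28 of the 30, and where a gene had several the one with the highest mean log2 signal stood for it. All 28 were bright enough to be tested, among 12386 genes tested of 19775 with such a probe set. The annotation used here lists no probe set for FDFT1 (squalene synthase), and CYP51A1 (lanosterol 14-demethylase) shares its probe sets with another gene, so neither has a value.

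The study compared 4 groups of 3 arrays each. The derivative Ls174T-pTER-β-catenin carries a doxycycline-inducible short hairpin RNA (shRNA) against β-catenin, and was profiled without doxycycline and after 72 hours of it. The derivative Ls174T-L8 carries a doxycycline-inducible dominant-negative Tcf4 (dnTcf4), and was profiled without doxycycline and after 24 hours of it. Both constructs interrupt the Wnt pathway, in which β-catenin and TCF/LEF factors activate target genes together. The culture medium was RPMI supplemented with fetal calf serum, a source of lipoprotein cholesterol and fatty acids, and was the same for all groups. A signal averages all cells of a culture, so fewer cells with a transcript and less of it per cell cannot be told apart. Construct, derivative line and duration of induction changed together, so their effects cannot be told apart in any comparison between the lines. The uninduced arrays are listed at the time of their line too, 72 or 24 hours. No line given doxycycline without a construct was analysed here. The labels do not state whether replicate arrays were made from independent cultures, and the p-values measure only their spread, which may be technical.

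Cells build cholesterol from acetyl-CoA through mevalonate, farnesyl diphosphate, squalene and lanosterol. Most enzymes of this route are transcribed under SREBP-2 (gene SREBF2), and those of fatty acid synthesis largely under SREBP-1 (gene SREBF1). The escort protein SCAP carries the SREBPs to the Golgi, where proteases release the active factor, and the INSIG proteins hold SCAP back in the endoplasmic reticulum when sterols are plentiful. INSIG1 is itself a target of the SREBPs, and the intestinal epithelium both makes cholesterol and takes it up.

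Signals are in the arbitrary units of the MAS5 algorithm, which summarises the probes of a probe set, and are compared for 1 probe set across arrays, never between genes. A change is the mean log2 signal of the induced arrays minus that of the uninduced arrays of the same line, with its standard error (SE) and limma's two-sided p-value adjusted by Benjamini-Hochberg over all 12386 genes. A gene with an adjusted p under 0.05 is said to have passed the test or to be called. The transcripts the constructs target were checked first. CTNNB1, which encodes β-catenin, fell 24.4-fold with the shRNA (change -4.61, adjusted p = 1.2e-14), and the Wnt target AXIN2 changed by -1.60 with the shRNA and by -2.24 with dnTcf4 (adjusted p = 4.4e-07 and 1.2e-08). A probe set of TCF7L2, the gene of Tcf4, rose in both lines (0.74 and 0.72, adjusted p = 1.7e-05 and 2.4e-05), and such a probe set does not separate the transgene from the cells' own transcript. All 10 intestinal epithelial marker genes, among them EPCAM, CDH1, KRT20 and CDX2, were above the brightness threshold of 10.2 in all 4 groups. Hepatocyte and adipocyte markers, from tissues rich in lipid synthesis, reached group means of at most 14.2 and 9.76, and of the markers of fibroblasts, leukocytes and endothelium 1 of 6, 0 of 3 and 1 of 3 measured exceeded the threshold in all groups, with a highest group mean of 99.1 for a fibroblast marker.

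Induction of the β-catenin shRNA for 72 hours moved single members in both directions. SCD, the stearoyl-CoA desaturase that makes oleate and palmitoleate, fell 2.43-fold, and both SREBP genes fell, SREBF1 by 1.90-fold and SREBF2 by 1.62-fold. STARD4, a soluble sterol carrier, rose 1.61-fold. Of the 28 members, 5 were called higher (STARD4, TM7SF2, INSIG2, IDI1 and PMVK) and 5 lower (SCD, SREBF1, SREBF2, NPC1 and SCAP). That is 35.7% of the members beside 34% of all genes tested, with 17.9% higher and 17.9% lower beside 16.6% and 17.4%, so the share of members called was near the background. The median change of the members was -0.03 and that of all genes 0.02 (log2). Only SCD was called with at least a 2-fold change, 1 of 28 members beside 8.62% of all genes.

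With induction of dnTcf4 for 24 hours, 10 members were called higher and 4 lower. ELOVL6, the elongase that extends palmitate to stearate, rose 2.42-fold and INSIG1 rose 2.37-fold. In the mevalonate pathway, MVD, IDI1, HMGCS1 and PMVK rose, and elsewhere INSIG2, MSMO1, SC5D and STARD4. FASN (fatty acid synthase), SCAP, SREBF1 and SCD fell. The 35.7% called higher compares with 16% of all genes, and the 14.3% called lower with 20%. Both directions together gave 50% of the members beside 36% of all genes, and the median change was 0.18 beside -0.05. ELOVL6 and INSIG1, 2 of 28 members, were called with at least 2-fold, beside 7.56% of all genes.

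The change with the shRNA minus the change with dnTcf4, tested as an interaction in the same fit, passed for 7 members, all with the more positive change in the dnTcf4 line. They were ELOVL6, INSIG1, HMGCS1, SCD, MVD, SREBF2 and NPC1. The 25% of members called lower in this difference compares with 8.61% of all genes, and no member was called higher beside 9.03%. Across both directions 17.6% of all genes were called, and 6.04% with at least 2-fold, among the members ELOVL6. Of the 28 members, 4 were called higher in both inductions (IDI1, INSIG2, STARD4 and PMVK) and 3 lower in both (SCD, SREBF1 and SCAP), while 11 were called in neither. The share of all genes called in both inductions or in neither was not computed, so these counts have no background beside them.

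**Figure D1:**
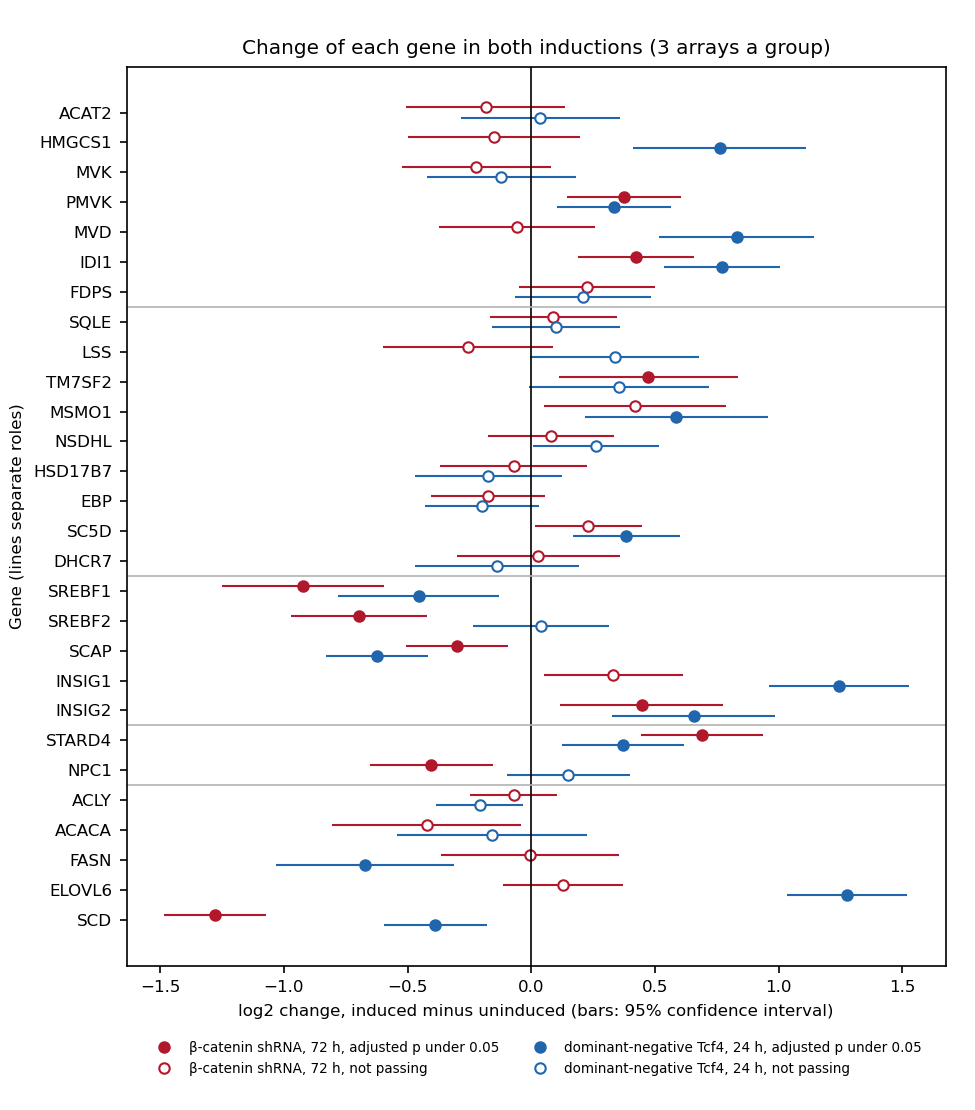
Change of each of the 28 members (rows, grouped by role) on the log2 scale, induced minus uninduced, with the shRNA at 72 h and with dominant-negative Tcf4 at 24 h; points are the fitted changes, filled where the adjusted p was under 0.05, and bars their 95% confidence intervals. SCD lies at -1.28 with the shRNA and -0.39 with dnTcf4, and ELOVL6 and INSIG1 lie above 1 with dnTcf4 (1.28 and 1.24).

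Most members differed between the uninduced arrays of the lines. These arrays are listed at 72 hours for the shRNA line and at 24 hours for the dnTcf4 line, so line and time cannot be told apart. The uninduced dnTcf4 line had lower signals than the uninduced shRNA line for 20 members, with LSS (lanosterol synthase) 2.44-fold, HMGCS1 2.37-fold, INSIG1 2.36-fold and SCD 2.19-fold lower. Only NPC1 and SCAP were called higher in the dnTcf4 line. The called share was 78.6% of members beside 37.3% of all genes, with 71.4% lower beside 20.5% and 7.1% higher beside 16.9%. The median difference was -0.55 over the members and -0.03 over all genes. The 4 members just named were those called with at least 2-fold, beside 10.4% of all genes. Both inductions are measured from these same uninduced arrays, so the line difference and the changes are not independent of each other. When every array was centred on its median instead, the median of all genes in this comparison was 0.09 and the calls were 2426 higher and 1668 lower in place of 2089 and 2536, and 16 members were called lower.

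**Figure D2:**
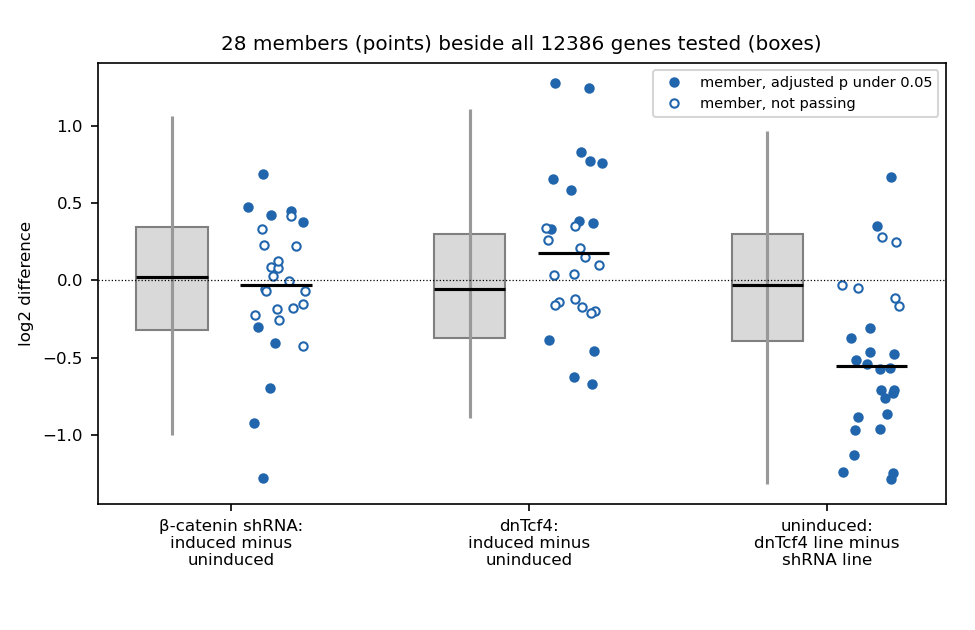
Log2 differences of the 28 members (points; filled where the adjusted p was under 0.05) beside those of all 12386 genes tested (grey box from the 25th to the 75th percentile, line from the 5th to the 95th, black bar at the median) in the 2 inductions and between the uninduced lines. The members' median lies at -0.03 with the shRNA, at 0.18 with dnTcf4 and at -0.55 between the lines.

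The 250 bases before the start site were read for 26 of the 30 members from RefSeq (GRCh38.p14). They were searched on both strands for the sterol regulatory element TCACNCCAC, the E-box CACGTG, the CCAAT box ATTGG, the GC box GGGCGG and the TCF motifs CTTTGAA and CTTTGAT. The 6 windows below belong to the members whose changes differed most between the constructs, since these carry the comparison. Capitals mark the sterol regulatory element, E-boxes, CCAAT boxes and TCF motifs, and GC boxes are left in lower case. Each runs 5′ to 3′ towards the start site.

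ELOVL6, chr4:110198616-110198865, minus strand: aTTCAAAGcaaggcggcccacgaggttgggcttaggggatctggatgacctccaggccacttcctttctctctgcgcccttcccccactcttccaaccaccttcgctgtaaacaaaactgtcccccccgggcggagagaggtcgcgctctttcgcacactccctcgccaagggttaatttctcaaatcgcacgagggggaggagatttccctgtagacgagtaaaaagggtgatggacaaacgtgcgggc

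INSIG1, chr7:155297628-155297877, plus strand: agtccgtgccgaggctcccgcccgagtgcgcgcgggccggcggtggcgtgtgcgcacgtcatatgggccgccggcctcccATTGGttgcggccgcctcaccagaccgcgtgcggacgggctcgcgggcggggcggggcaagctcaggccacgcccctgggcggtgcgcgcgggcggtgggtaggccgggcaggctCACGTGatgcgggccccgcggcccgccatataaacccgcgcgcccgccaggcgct

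HMGCS1, chr5:43313413-43313662, minus strand: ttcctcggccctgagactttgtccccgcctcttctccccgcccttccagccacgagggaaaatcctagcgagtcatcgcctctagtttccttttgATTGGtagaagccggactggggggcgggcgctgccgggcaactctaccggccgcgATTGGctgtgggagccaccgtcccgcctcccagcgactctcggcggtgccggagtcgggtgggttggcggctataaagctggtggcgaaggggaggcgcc

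MVD, chr16:88663092-88663341, minus strand: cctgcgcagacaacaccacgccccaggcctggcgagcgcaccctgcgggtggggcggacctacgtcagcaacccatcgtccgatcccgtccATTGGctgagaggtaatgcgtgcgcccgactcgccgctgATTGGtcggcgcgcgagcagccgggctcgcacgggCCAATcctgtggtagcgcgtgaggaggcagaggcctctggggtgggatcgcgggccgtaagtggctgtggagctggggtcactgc

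SREBF2, chr22:41832855-41833104, plus strand: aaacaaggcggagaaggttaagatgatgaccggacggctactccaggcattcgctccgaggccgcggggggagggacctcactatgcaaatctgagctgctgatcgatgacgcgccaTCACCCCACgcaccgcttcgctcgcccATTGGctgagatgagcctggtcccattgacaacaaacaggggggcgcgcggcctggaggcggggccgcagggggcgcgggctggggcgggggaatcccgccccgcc

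SCD, chr10:100346983-100347232, plus strand: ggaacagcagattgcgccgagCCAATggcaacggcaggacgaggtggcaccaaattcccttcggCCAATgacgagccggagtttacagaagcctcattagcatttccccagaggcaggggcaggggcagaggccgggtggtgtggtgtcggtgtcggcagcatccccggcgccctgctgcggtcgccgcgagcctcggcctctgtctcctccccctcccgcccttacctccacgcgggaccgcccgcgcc

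The string TCACNCCAC, searched here as the sterol regulatory element, was found for 1 member, SREBF2, from 133 to 125 bases before its start site. That is 3.8% of the members beside 1.1% of all genes with an entry and 1.2% of the tested genes with one. A TCF motif was found for 1 member, ELOVL6, from 249 to 243 bases before the start (3.8%, beside 7.2% of all genes and 5.4% of tested genes). CCAAT boxes were found for 19 of 26 members (73.1%, beside 37.0% and 41.7%), with 3 in the MVD window and 2 in the printed HMGCS1 window, while another HMGCS1 start site in the table, not printed, had none. GC boxes were found for 25 members (96.2%, beside 46.2% and 72.9%), and the E-box for 3 (11.5%, beside 7.7% and 11.2%), 1 of them INSIG1 from 55 to 50 bases before the start. These are matches of letters only, and binding at them was not measured here.

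In the mevalonate pathway, 4 of the 7 members were called higher with dnTcf4 and 2 with the shRNA. That is 57.1% and 28.6%, beside 16% and 16.6% of all genes, and 7 genes are few for such shares. With the shRNA 4 of the 7 changes were negative, and of these ACAT2 and MVK were called lower when 1 array, uninduced array 3, was left out (-0.41 and -0.39). HMGCS1, which condenses acetoacetyl-CoA with acetyl-CoA, had signals of 368, 533 and 438 on the 3 uninduced dnTcf4 arrays and 755, 785 and 705 on the induced ones. All induced arrays lay above all uninduced ones (change 0.76 ± 0.16, adjusted p = 0.0017). In the shRNA line its signals were 1099, 1218 and 850.4 uninduced and 1067, 1086 and 719.6 induced, and the groups overlapped (change -0.15 ± 0.16, adjusted p = 0.53). The difference between the changes passed (-0.91, adjusted p = 0.012, and adjusted p = 0.057 without a variance trend in the fit). Uninduced HMGCS1 was 2.37-fold lower in the dnTcf4 line. A second, dimmer HMGCS1 probe set gave 1.05 with dnTcf4, with a wider spread (adjusted p = 0.093 in a fit over every probe set).

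MVD, which makes isopentenyl diphosphate from mevalonate diphosphate, had 97.6, 94.6 and 98.1 on the uninduced and 158, 188 and 171 on the induced dnTcf4 arrays. The groups were well apart there (change 0.83 ± 0.15, adjusted p = 0.00034), while in the shRNA line 199.6, 209 and 136 before and 171, 174 and 169 after induction overlapped (change -0.06 ± 0.15, adjusted p = 0.81). The difference between the changes was -0.89 ± 0.21, adjusted p = 0.0077. IDI1, the isomerase of isopentenyl diphosphate, was higher on every induced array of both lines. Its signals went from 1112, 1155 and 961 to 2020.3, 1657 and 1832 with dnTcf4 (change 0.77 ± 0.11, adjusted p = 4.5e-05). With the shRNA they went from 1112, 1182 and 997 to 1507, 1659.8 and 1265 (change 0.42 ± 0.11, adjusted p = 0.0067). The uninduced lines did not pass at IDI1 (-0.03 ± 0.11, adjusted p = 0.87), and neither did the difference of its changes. The IDI1 probe set has the suffix _x_at, which marks probes that may also bind other transcripts. The only IDI1 probe set without such a suffix was dim and gave -0.47 with the shRNA and -0.21 with dnTcf4, the opposite sign, and did not pass. Of the other _x_at probe sets of IDI1, 1 rose in both lines (0.47 with the shRNA and 0.78 with dnTcf4), and a dim one gave 0.67 and 0.65 and did not pass (adjusted p = 0.14 and 0.16).

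PMVK, the phosphomevalonate kinase, rose by 0.34 ± 0.11 with dnTcf4 and 0.37 ± 0.11 with the shRNA (adjusted p = 0.023 and 0.013), and the induced and uninduced arrays did not overlap in either line. Of the other 3 members of this pathway none passed in an induction. ACAT2 (cytosolic thiolase) gave -0.18 with the shRNA and 0.04 with dnTcf4, MVK (mevalonate kinase) -0.22 and -0.12, and FDPS (farnesyl diphosphate synthase) 0.23 and 0.21. The 95% interval of the FDPS change was -0.05 to 0.50 with the shRNA and -0.06 to 0.49 with dnTcf4. FDPS differed more between the uninduced lines, with 4637, 4501 and 3053 in the shRNA line and 1949.5, 2160.5 and 2058 in the dnTcf4 line (-0.96 ± 0.13, adjusted p = 2.2e-05). A second MVK probe set passed with the shRNA (-0.45 ± 0.13, adjusted p = 0.031 in a fit over every probe set) where the brightest gave -0.22 and did not pass.

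From squalene to cholesterol, 9 members had values, of which MSMO1 and SC5D were called higher with dnTcf4 and TM7SF2 with the shRNA. That is 22.2% and 11.1%, near the 16% and 16.6% of all genes for so few members. In each induction 3 of the 9 changes were negative. LSS and EBP were called lower with the shRNA when uninduced array 3 was left out (-0.47 and -0.31). MSMO1, the C4 sterol methyl oxidase, had 1354, 1631 and 1293 on the uninduced and 2170.4, 2300.0 and 1936 on the induced dnTcf4 arrays, which did not overlap (change 0.59 ± 0.17, adjusted p = 0.014). In the shRNA line MSMO1 had 3249.8, 3525 and 1861 and 4181, 3509 and 3477, where uninduced array 3 was the lowest of the 6, the groups overlapped and the change did not pass (0.42 ± 0.17, adjusted p = 0.075). SC5D, the lathosterol desaturase, rose with dnTcf4 (0.38 ± 0.10, adjusted p = 0.0074) and gave 0.23 ± 0.10 with the shRNA (adjusted p = 0.094), with no overlap of groups in either line. A second, dim SC5D probe set passed with the shRNA instead (1.54 ± 0.37, adjusted p = 0.0089) and gave 0.09 with dnTcf4.

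TM7SF2, a sterol C14 reductase, was called higher with the shRNA (0.47 ± 0.17, adjusted p = 0.042) and gave 0.35 with dnTcf4 (adjusted p = 0.12), and these changes did not differ in the test (adjusted p = 0.80). Its uninduced signals were 579.8, 578 and 329.9, so that array 3 was far below the others, and its induced signals were 652, 765 and 592. SQLE (squalene epoxidase, the step after squalene) gave 0.09 with the shRNA and 0.10 with dnTcf4, with 95% intervals of -0.17 to 0.35 and -0.16 to 0.36. LSS gave -0.26 and 0.34 and did not pass in either. NSDHL, HSD17B7, EBP and DHCR7, which act on later sterol intermediates, did not pass either (the HSD17B7 probe set has the suffix _x_at), with changes from -0.20 to 0.26. The line difference reached most of these genes. LSS had 2456, 2495 and 1601 in the uninduced shRNA line and 814, 1078 and 770.5 in the uninduced dnTcf4 line (-1.29 ± 0.16, adjusted p = 1.1e-05). In the dnTcf4 line 7 of the 9 members were called lower, all but TM7SF2 and EBP (77.8%, beside 20.5% of all genes).

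**Figure D3:**
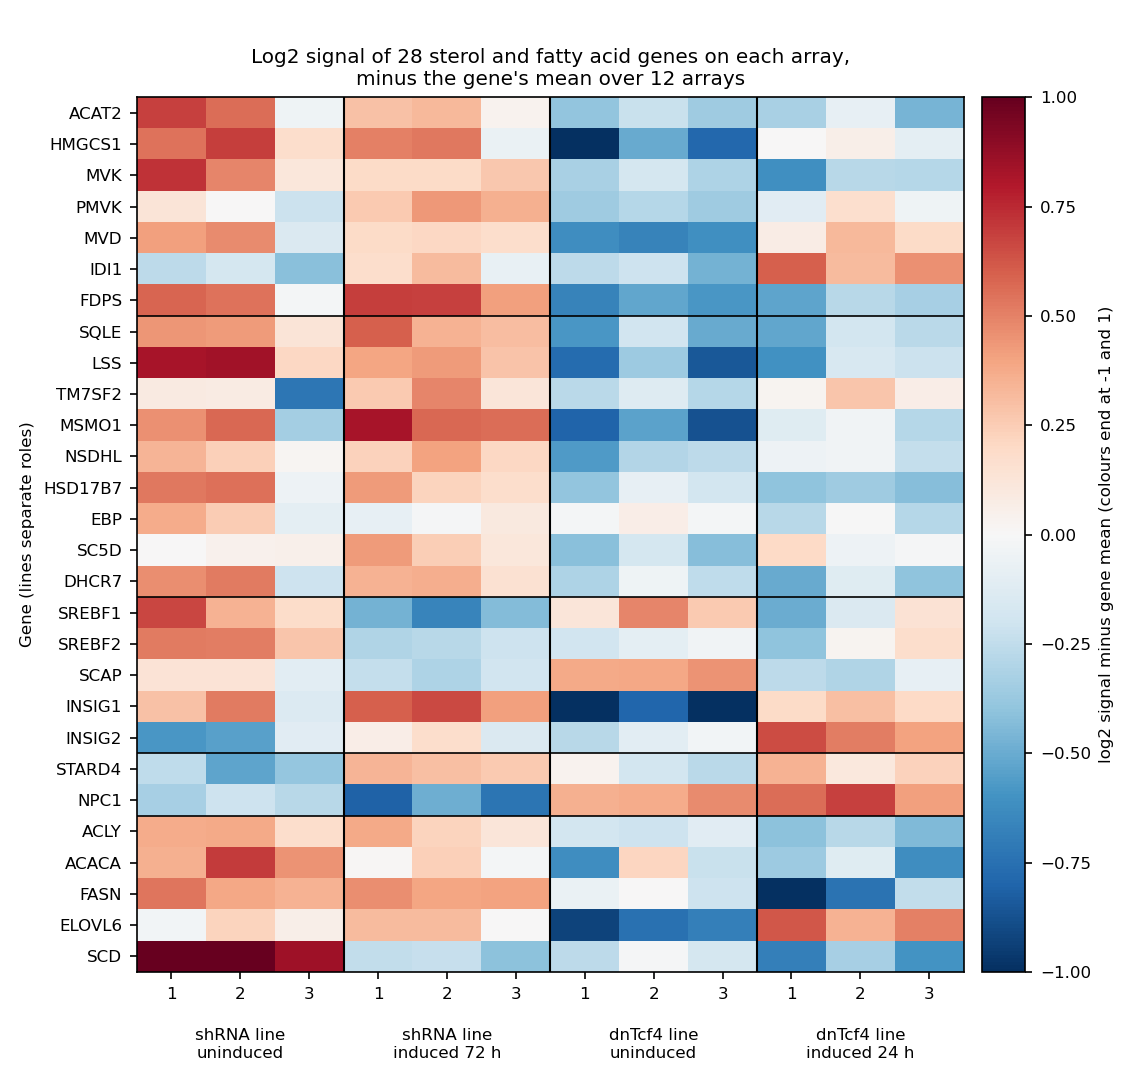
Log2 signal of each of the 28 members (rows, with lines between roles) on each of the 12 arrays (columns, 3 a group), minus the gene's mean over all arrays; colours end at -1 and 1. The uninduced dnTcf4 arrays are below the gene mean for most sterol genes, and uninduced array 3 of the shRNA line is the lowest of its group for 22 of the 28 genes.

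Among the SREBP factors and their control, SREBF1 and SREBF2 fell with the shRNA. SREBF1 went from 769, 616 and 551 to 348, 307 and 358 (-0.92 ± 0.15, adjusted p = 0.00018), and SREBF2 from 536, 536 and 454 to 304, 310.0 and 325 (-0.70 ± 0.13, adjusted p = 0.00049). The induced arrays lay below all uninduced arrays for both. With dnTcf4, SREBF2 had 329, 349.8 and 367 and 284, 382 and 422, which overlapped (0.04 ± 0.13, adjusted p = 0.85), and the difference between its changes passed (-0.73 ± 0.18, adjusted p = 0.011). SREBF1 was called lower with dnTcf4 as well (-0.46 ± 0.15, adjusted p = 0.029), but its signals of 525, 678 and 582 before and 344, 437 and 535 after induction overlapped. A second probe set did not pass for either gene in either line. For SREBF2 it gave -0.18 with the shRNA and 0.41 with dnTcf4, and for SREBF1 -0.38 and -0.26.

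INSIG1, the sterol-responsive INSIG protein, rose with dnTcf4. Its signals were 924, 1147 and 907 uninduced and 2274, 2449.7 and 2291 induced, without overlap (1.24 ± 0.13, adjusted p = 2.3e-06), and all 3 INSIG1 probe sets rose, by 1.24, 1.26 and 1.30. With the shRNA, 2438, 2853 and 1809 and 3018, 3142 and 2649 overlapped (0.33 ± 0.13, adjusted p = 0.065). The difference between the changes passed (-0.91 ± 0.19, adjusted p = 0.0030). Uninduced INSIG1 had a mean of 987 in the dnTcf4 line and 2326 in the shRNA line (geometric means), and the induced dnTcf4 arrays had 2337.

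INSIG2, the second INSIG protein, rose with dnTcf4 from 90.8, 103 and 108 to 173, 157 and 146 (0.66 ± 0.16, adjusted p = 0.0033) and was called higher with the shRNA (0.45 ± 0.16, adjusted p = 0.035), where 73.5, 75.6 and 102 and 115, 124 and 99.6 overlapped. SCAP fell in both lines. Its signals were 649, 654 and 684 and then 417, 405 and 471 with dnTcf4 (-0.62 ± 0.10, adjusted p = 0.00010), and 548, 549 and 464 and then 424, 403 and 438 with the shRNA (-0.30 ± 0.10, adjusted p = 0.025). No induced array reached the uninduced ones in either line.

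The 2 sterol transport members differed. STARD4 rose in both lines, from 206, 170.5 and 188 to 311, 303 and 295 with the shRNA (0.69 ± 0.12, adjusted p = 0.00020) and from 252, 217 and 204 to 314, 265 and 289 with dnTcf4 (0.37 ± 0.12, adjusted p = 0.020). NPC1, which exports cholesterol from lysosomes, fell with the shRNA from 166, 181 and 173 to 119, 149 and 126 (-0.41 ± 0.12, adjusted p = 0.013). With dnTcf4 it had 268, 270.5 and 289 and 307, 335 and 278, which overlapped (0.15 ± 0.12, adjusted p = 0.36). NPC1 was 1 of the 2 members called higher in the uninduced dnTcf4 line (0.67 ± 0.12, adjusted p = 0.00027), the other being SCAP (0.35 ± 0.10, adjusted p = 0.0092).

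In fatty acid synthesis, the 5 members went separate ways. SCD had the largest change of any member with the shRNA. Its signals were 5722, 5784 and 5012 uninduced and 2349, 2369 and 2089 induced, and every uninduced array lay far above the induced ones (-1.28 ± 0.10, adjusted p = 4.7e-08). With dnTcf4 it went from 2319.8, 2762 and 2458 to 1732, 2208 and 1838, a smaller fall without overlap (-0.39 ± 0.10, adjusted p = 0.0051), and the difference between the changes passed (-0.89 ± 0.14, adjusted p = 0.00033). All 4 SCD probe sets fell with the shRNA, by 1.28, 1.56, 1.58 and 1.69 on the log2 scale. With dnTcf4 they gave -0.39, -0.72, -0.31 and -0.34, of which the first pair passed in the fit over every probe set.

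ELOVL6 was unlike SCD, its neighbour in the pathway. It had 292, 330.3 and 346 on the uninduced and 855, 706 and 788 on the induced dnTcf4 arrays (1.28 ± 0.11, adjusted p = 3.2e-07), against 544, 646 and 577 and 689, 689.7 and 556 in the shRNA line (0.13 ± 0.11, adjusted p = 0.43). The groups were apart with dnTcf4 and overlapped with the shRNA, and the difference between the changes passed (-1.15 ± 0.16, adjusted p = 0.00014). A second ELOVL6 probe set rose with dnTcf4 as well (1.14), and another, dimmer one gave 0.11 and did not pass.

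FASN fell with dnTcf4 from 1398, 1467 and 1266 to 596, 876 and 1232, with the induced arrays spread widely and all below the uninduced ones (-0.67 ± 0.17, adjusted p = 0.0053). With the shRNA it had 2120.0, 1909.8 and 1859.7 and 2020.0, 1918 and 1926 (-0.0043 ± 0.17, adjusted p = 0.99), and the difference between the changes did not pass (0.67 ± 0.24, adjusted p = 0.067). ACLY, which makes cytosolic acetyl-CoA from citrate, gave -0.07 with the shRNA and -0.21 with dnTcf4. ACACA, the acetyl-CoA carboxylase, gave -0.42 and -0.16. Neither passed in an induction, although the groups did not overlap for ACLY with dnTcf4 and for ACACA with the shRNA. All 5 fatty acid members were called lower in the uninduced dnTcf4 line, by 0.48 to 1.13 on the log2 scale, beside 20.5% of all genes called lower there.

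**Figure D4:**
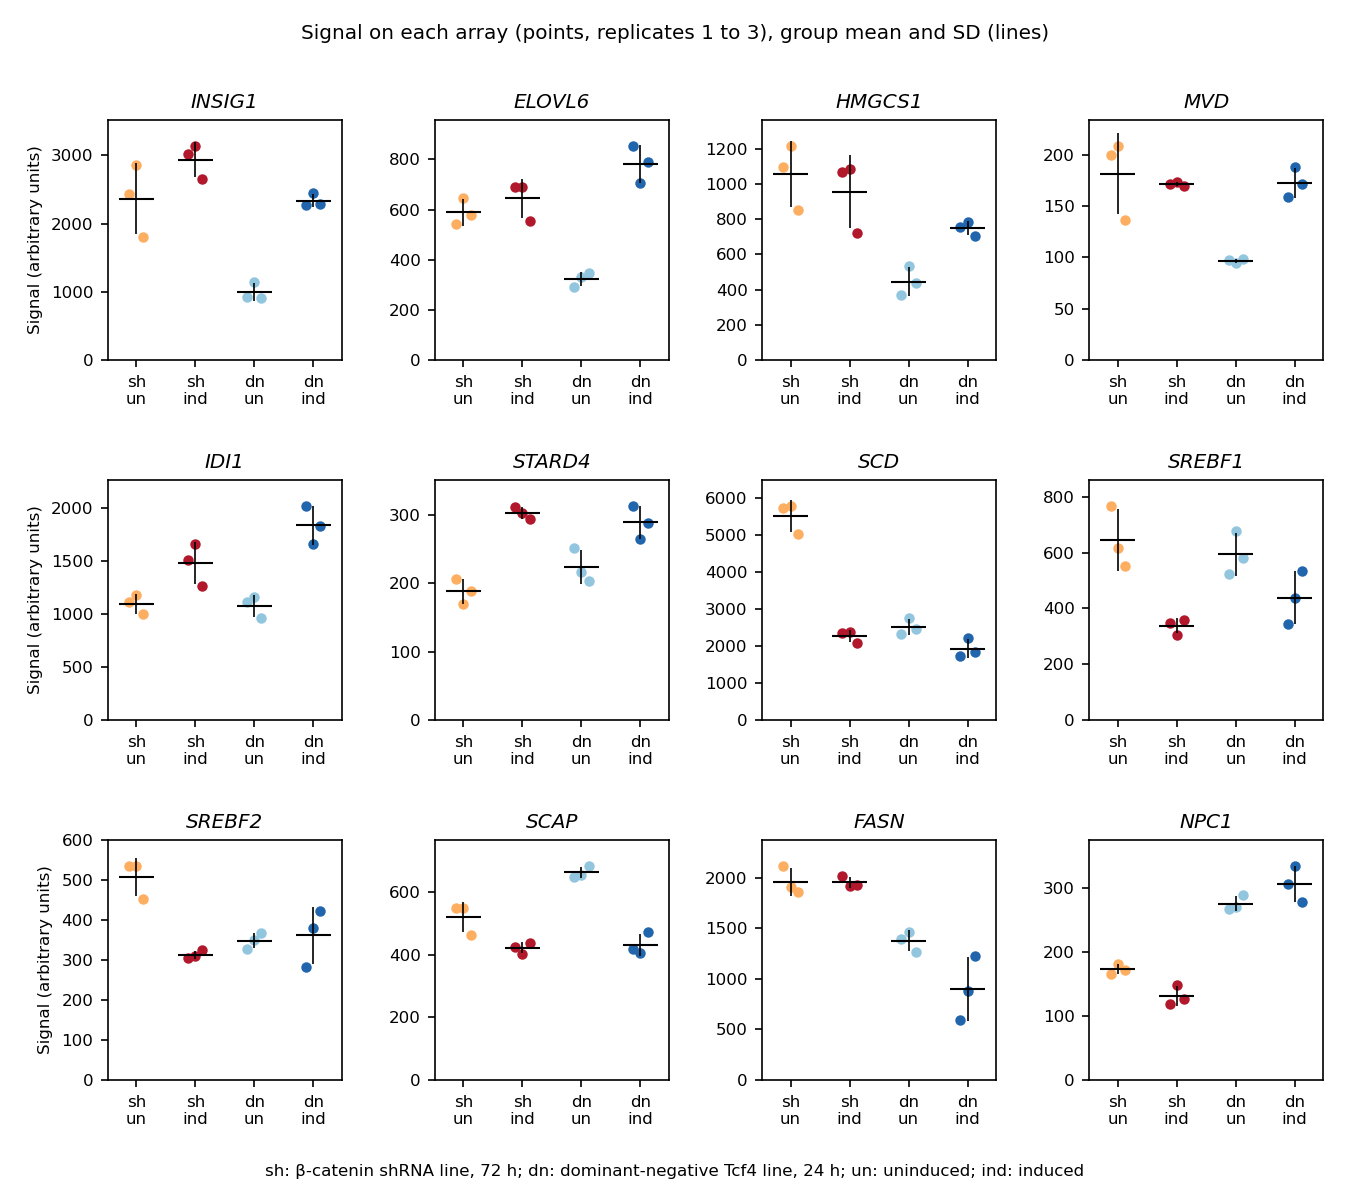
Signal of 12 members on each array (points, 3 a group), with the group mean (horizontal line) and SD (vertical line), in the shRNA line and the dnTcf4 line, uninduced and induced; each panel has its own axis, which starts at 0. INSIG1, ELOVL6, HMGCS1 and MVD rise in the dnTcf4 line and overlap in the shRNA line, and SCD falls in both.

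**Figure D5:**
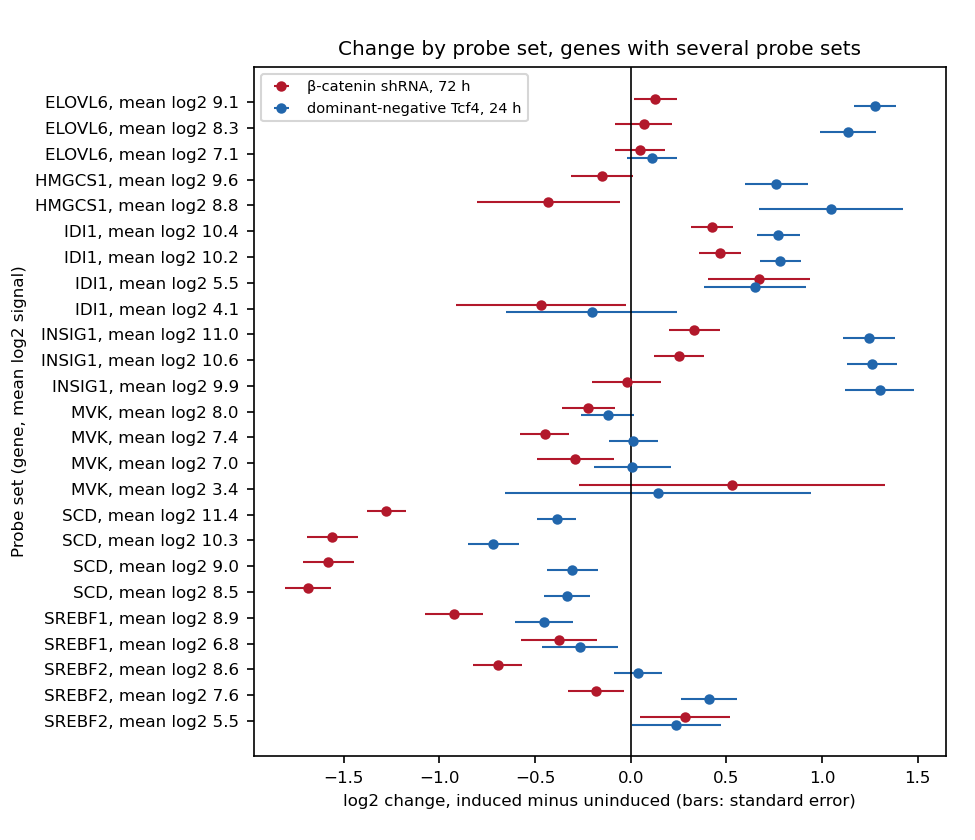
Change (log2, induced minus uninduced, with SE) of every probe set of 8 members that passed the brightness filter, with the shRNA and with dnTcf4. The 4 SCD probe sets agree on a fall with the shRNA, the 3 INSIG1 probe sets lie between 1.24 and 1.30 with dnTcf4, and the dimmest probe sets of ELOVL6 and IDI1 stand apart from the brightest of the same gene.

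Probe sets of 1 gene also differed in sign or call where the further ones did not pass. In the shRNA line, a sign opposite to the brightest was given by an ACACA (0.14), an LSS (0.85), an EBP (0.26), an MVK (0.53), an NPC1 (0.60), an SREBF2 (0.28) and an INSIG1 probe set (-0.02). Others of these genes had the sign of the brightest there and did not pass, at -0.39 for LSS, -0.22 and -0.10 for EBP, -0.29 for MVK, -1.07 for NPC1 and 0.25 for INSIG1. In the dnTcf4 line, opposite signs were given by 1 EBP (0.29), 3 MVK (0.013, 0.0070 and 0.14) and 2 NPC1 probe sets (-0.16 and -0.42), while the other EBP sets gave -0.16 and -0.13.

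The ranges of the groups did not overlap for 11 members with the shRNA (39.3%, beside 44.6% of all genes), for 16 with dnTcf4 (57.1%, beside 47.1%) and for 21 between the uninduced lines (75%, beside 49.9%). Array 3 stood apart within the shRNA line for these genes. It was the lowest of the uninduced arrays for 22 of 28 members (78.6%, beside 39.8% of all genes) and the lowest of the induced arrays for 20 (71.4%, beside 36.4%). In the dnTcf4 line, array 2 was the highest for 19 of 28 members in each group, a larger share than the 36.9% of all genes in each. Without uninduced array 3, 3 members were called higher and 9 lower with the shRNA and the members' median was -0.17. Without the arrays numbered 3 of both shRNA groups, 3 were higher and 6 lower. The shares of all genes called in each direction were not computed for these refits, so these counts have no background beside them. SCD, SREBF1, SREBF2 and STARD4 passed with the shRNA under every alternative that gave them a value, as did 8 of the 14 members called with dnTcf4, which were ELOVL6, INSIG1, MVD, HMGCS1, INSIG2, FASN, SCAP and SCD. SCD, MVD and FASN have only _s_at and _x_at probe sets, so the alternative without such probe sets gave them none.

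Some calls were lost or gained when 1 array was left out, and the value in parentheses is the change without the array named. Where several arrays are named, leaving out any 1 of them was enough. With the shRNA, TM7SF2 was no longer called without dnTcf4 uninduced array 1 (0.47), dnTcf4 uninduced array 2 (0.47), dnTcf4 uninduced array 3 (0.47), induced array 1 (0.49), induced array 2 (0.37) or uninduced array 3 (0.20), adjusted p = 0.051 to 0.22. INSIG2 lost its call without induced array 1 (0.43), induced array 2 (0.37), uninduced array 1 (0.36) or uninduced array 2 (0.38), adjusted p = 0.085 to 0.13. SCAP lost it without induced array 1 (-0.30), induced array 2 (-0.27), uninduced array 1 (-0.26) or uninduced array 2 (-0.26), adjusted p = 0.053 to 0.10. For PMVK the call was lost without induced array 2 (0.33) or uninduced array 3 (0.28), adjusted p = 0.052 to 0.061, and for NPC1 without induced array 1 (-0.34) or uninduced array 2 (-0.37), adjusted p = 0.051 to 0.060. Other members gained a call there. Without uninduced array 3, ACAT2, EBP, LSS and MVK were called lower with the shRNA (-0.41, -0.31, -0.47 and -0.39, adjusted p = 0.015, 0.019, 0.020 and 0.032). INSIG1 was called higher without uninduced array 2 (0.48, adjusted p = 0.011), MSMO1 without uninduced array 1 (0.53) or uninduced array 2 (0.59), adjusted p = 0.019 to 0.047, and SC5D without induced array 3 (0.31, adjusted p = 0.048). ACACA was called lower without dnTcf4 uninduced array 1 (-0.42) or dnTcf4 uninduced array 2 (-0.42), adjusted p = 0.046 to 0.047.

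With dnTcf4, SREBF1 was no longer called without induced array 1 (-0.29), induced array 2 (-0.46), uninduced array 2 (-0.36) or uninduced array 3 (-0.47), adjusted p = 0.057 to 0.16. STARD4 lost its call without induced array 1 (0.31), uninduced array 2 (0.35) or uninduced array 3 (0.30), adjusted p = 0.065 to 0.092. PMVK lost it without induced array 2 (0.25), uninduced array 1 (0.32) or uninduced array 3 (0.32), adjusted p = 0.065 to 0.11, and MSMO1 without induced array 2 (0.53) or uninduced array 3 (0.52), adjusted p = 0.053 to 0.058. LSS was called higher without induced array 1 (0.48), uninduced array 2 (0.49) or shRNA uninduced array 3 (0.34), adjusted p = 0.039 to 0.048, TM7SF2 without shRNA uninduced array 3 (0.35, adjusted p = 0.015), and ACLY was called lower without induced array 2 (-0.26), shRNA induced array 1 (-0.21) or shRNA uninduced array 3 (-0.21), adjusted p = 0.039 to 0.049. The difference between the changes of NPC1 (-0.56 ± 0.17, adjusted p = 0.028) was lost without dnTcf4 induced array 1 (-0.55), dnTcf4 induced array 2 (-0.49), dnTcf4 uninduced array 1 (-0.53), dnTcf4 uninduced array 2 (-0.54), shRNA induced array 1 (-0.49), shRNA induced array 3 (-0.53) or shRNA uninduced array 2 (-0.52), adjusted p = 0.051 to 0.070. That of FASN passed without dnTcf4 induced array 3 (0.92, adjusted p = 0.0017), that of SREBF1 without dnTcf4 induced array 1 (-0.63, adjusted p = 0.043), that of MSMO1 without shRNA uninduced array 3 (-0.45, adjusted p = 0.049), and that of LSS without dnTcf4 induced array 1 (-0.73), dnTcf4 uninduced array 2 (-0.74) or shRNA uninduced array 3 (-0.80), adjusted p = 0.0088 to 0.039. Between the uninduced lines, DHCR7 was no longer called without dnTcf4 uninduced array 1 (-0.41), dnTcf4 uninduced array 3 (-0.44), shRNA uninduced array 1 (-0.36) or shRNA uninduced array 2 (-0.33), adjusted p = 0.079 to 0.15. FASN lost its call without dnTcf4 uninduced array 1 (-0.52), dnTcf4 uninduced array 3 (-0.45), shRNA uninduced array 1 (-0.46) or shRNA uninduced array 2 (-0.53), adjusted p = 0.054 to 0.090, and PMVK without dnTcf4 uninduced array 1 (-0.30), dnTcf4 uninduced array 2 (-0.33), dnTcf4 uninduced array 3 (-0.29), shRNA uninduced array 1 (-0.23) or shRNA uninduced array 2 (-0.29), adjusted p = 0.058 to 0.16. Without shRNA uninduced array 3, EBP, TM7SF2 and INSIG2 were called there (-0.30, -0.32 and 0.43, adjusted p = 0.020, 0.047 and 0.039).

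Genes next to the pathway were read from 6 further lists. Of all genes tested, 16.6% were called higher and 17.4% lower with the shRNA, and 16% and 20% with dnTcf4. The counts of these small lists stand beside those shares. Except where a call is said to be lost, those named here kept their call in the inductions stated under every alternative that gave them a value. That leaves out the alternative without _x_at and _s_at probe sets for ACSL5, ACSS2, ERLIN2, OSBPL2, PDSS1 and DGAT2, and the stricter brightness filter for DHDDS. Of 8 tested genes for processing and degradation of SREBPs and their partners, 3 were called higher and 1 lower with the shRNA, and 0 higher and 2 lower with dnTcf4. ERLIN1, a scaffold of sterol-dependent degradation in the endoplasmic reticulum, fell in both (-1.55, adjusted p = 9.2e-09 and -0.51, adjusted p = 0.0010), while its partner ERLIN2 rose with the shRNA (1.11, adjusted p = 1.4e-06). SPRING1, a cofactor of SREBP processing, rose with the shRNA (0.50, adjusted p = 0.00020). Of 8 other sterol pathway genes, 2 were higher and 2 lower with the shRNA, and 3 higher and 1 lower with dnTcf4. LBR, a sterol C14 reductase of the nuclear envelope, fell in both (-0.41, adjusted p = 0.00086 and -0.45, adjusted p = 0.00043), ACAT1, the mitochondrial thiolase, rose in both (0.62 and 0.50), and the electron donor CYB5R3 rose with dnTcf4 (0.70, adjusted p = 1.6e-05).

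Of 15 tested genes of sterol transport, esterification and efflux, 4 were called higher and 4 lower with the shRNA, and 5 higher and 3 lower with dnTcf4. With the shRNA that is 26.7% in each direction, beside 16.6% and 17.4% of all genes. With dnTcf4 it is 33.3% and 20%, beside 16% and 20%. TMEM97, which binds NPC1, fell in both (-0.83, adjusted p = 5.0e-05 and -0.80, adjusted p = 6.5e-05). LIPA, the lysosomal acid lipase, rose in both (0.62 and 0.67), as did NR1H3, the sterol sensor LXRα (0.76 and 0.53). OSBPL2, an oxysterol-binding protein, fell with the shRNA and rose with dnTcf4 (-0.62, adjusted p = 0.00032 and 0.75, adjusted p = 5.5e-05), and the difference passed (adjusted p = 1.8e-05). SCARB1, the lipoprotein receptor SR-BI, fell with dnTcf4 (-0.79, adjusted p = 7.4e-05). Of 15 tested genes of the isoprenoid branches, which use farnesyl diphosphate for other products, 2 were higher and 2 lower in each induction. That is 13.3% in each direction, below the shares of all genes. PDSS1, of the ubiquinone side chain, fell in both (-0.81 and -0.66), and DHDDS, of dolichol synthesis, fell with the shRNA (-1.26, adjusted p = 4.9e-05). With dnTcf4 DHDDS was called higher (0.51, adjusted p = 0.037), a call lost under 8 of 22 alternatives.

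Of 20 other tested genes of fatty acid synthesis, 4 were called higher and 5 lower with the shRNA, and 3 higher and 3 lower with dnTcf4. With the shRNA that is 20% and 25%, beside 16.6% and 17.4% of all genes. With dnTcf4 it is 15% in each direction, beside 16% and 20%. ACSS2, which makes cytosolic acetyl-CoA from acetate, rose with dnTcf4 from a mean of 183 to 434 (1.24, adjusted p = 0.00019). MID1IP1, an activator of acetyl-CoA carboxylase, rose in both (1.20, adjusted p = 5.5e-05 and 1.28, adjusted p = 2.9e-05), and ME1, the malic enzyme that supplies NADPH, rose with the shRNA (0.72, adjusted p = 1.5e-06). Of 13 tested genes of fatty acid activation and glycerolipid synthesis, 4 were higher and 3 lower in each induction. That is 30.8% and 23.1%, beside 16.6% and 17.4% of all genes with the shRNA and 16% and 20% with dnTcf4. ACSL5, an acyl-CoA synthetase of the intestine, fell with the shRNA and rose with dnTcf4 (-3.06, adjusted p = 6.8e-11 and 0.55, adjusted p = 0.0042), and ACSL1 rose in both (0.64 and 0.78). AGPAT2 rose with dnTcf4 (2.04, adjusted p = 8.7e-10). With the shRNA AGPAT2 was called lower (-0.29, adjusted p = 0.046), a call lost under 16 of 23 alternatives. DGAT2, which completes triglycerides, fell in both (-0.51, adjusted p = 0.0037 and -1.38, adjusted p = 3.0e-07). The median changes of the 6 lists lay between -0.04 and 0.21 with the shRNA and between -0.12 and 0.32 with dnTcf4, beside 0.02 and -0.05 for all genes.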

How the data were processed

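Total RNA of 12 samples (4 groups of 3, grouped by the labels) was hybridised to 1 array each. The deposited values are intensities on a linear scale, made by the authors with MAS5 and GCOS per the submitters' processing notes (versions: not given in the sources used here). The middle 96% of each array's deposited intensities average 100, and no detection calls were used. Signals were floored at 1 and taken to log2. Of 54675 probe sets, 41091 are assigned to 1 gene, 1801 to several and 11783 to none in the platform annotation. The brightest probe set of each gene was kept, and genes with a mean log2 signal under 3.35 (the median over all probe sets, a signal of 10.2) were left out, which were 7389. limma 3.58.1 in R 4.3.3 fitted 4 group means to all 12 arrays with a variance trend (8 residual and 8.05 prior degrees of freedom), with p-values adjusted by Benjamini-Hochberg. The scripts were tested on simulated data. Values with 3 arrays a group are limited in precision by that number.

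The members and lists were chosen with earlier results of these data known. Named were all members, and every probe set above the brightness filter of a member where these differed in call or sign in an induction. Per further list, direction and induction, at most 3 called genes with the largest change were considered. Only some of those with a stable call are printed. Stable calls left out include GRAMD1B (1.66), GGPS1 (0.53), CYB5B (-0.83) and MECR (-0.53) with the shRNA. With dnTcf4 they include SRD5A1 (0.64), SOAT1 (0.57), AGPAT1 (-0.67) and COQ2 (-0.34). Alternatives were quantile normalization, median centring, other filters and offsets, no variance trend, array weights, other probe set choices, a replicate block and leaving out each array. Promoter windows were read from RefSeq's table (GRCh38.p14), and none was read after the start site.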

Additional observations from a re-analysis of the deposited data

Results flagged for a closer look

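Each of 7 members was marked because its change with the shRNA differed from its change with dnTcf4 by the interaction in limma's fit, at an adjusted p under 0.05 over all 12386 genes. The difference (shRNA minus dnTcf4, log2) was -1.15 for ELOVL6, -0.91 for INSIG1, -0.91 for HMGCS1, -0.89 for SCD, -0.89 for MVD, -0.73 for SREBF2 and -0.56 for NPC1. ELOVL6, INSIG1, HMGCS1 and MVD rose with dnTcf4 and gave 0.13, 0.33, -0.15 and -0.06 with the shRNA, none of which passed. SCD fell in both inductions, further with the shRNA. SREBF2 and NPC1 fell with the shRNA and gave 0.04 and 0.15 with dnTcf4. Of all genes, 17.6% passed the same test. In a fit over every probe set, all SCD and INSIG1 probe sets passed for this difference. Further ones above the brightness filter gave -0.59 and 0.04 for SREBF2, 0.76 and -0.65 for NPC1 and -1.48 for HMGCS1, none passing. The dimmest ELOVL6 probe set gave -0.06 and did not pass. The brightest NPC1 probe set did not pass in that fit either (adjusted p = 0.064). The lines, the constructs and the durations of induction cannot be told apart in this difference. All of the 7 members but NPC1 also had lower uninduced signals in the dnTcf4 line, by 0.54 to 1.24 on the log2 scale. The part of that uninduced level in the difference was not tested.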

How the results depend on the processing

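The members' calls held under every alternative that gave a value for 4 of 10 with the shRNA, 8 of 14 with dnTcf4, 5 of 7 in the difference of the changes and 17 of 22 between the uninduced lines. Among these, SCD, MVD, FASN, ACAT2, ACLY and HSD17B7 had no value without _x_at and _s_at probe sets. With the shRNA the members called higher, 5, were 1 with each array centred on its median, and 3 with no brightness filter, with only the arrays compared in the fit, without _x_at and _s_at probe sets, and without the shRNA arrays 3 of both groups, the last chosen after seeing the data. Without _x_at and _s_at probe sets, where 19 members could be tested, 6 were higher and 2 lower with dnTcf4 and 10 lower between the uninduced lines. There IDI1 turned to -0.47 with the shRNA and -0.21 with dnTcf4, and SC5D to 0.65 between the uninduced lines, none of them called. With array quality weights 1 member was called higher in the difference and 4 between the uninduced lines. With every probe set tested by itself, 7131 of 23150 were called between the uninduced lines. HMGCS1 lost its call in the difference with no variance trend (adjusted p = 0.057). The cause of these shifts was not tested.

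Leaving out 1 array at a time, 2 to 6 members were higher and 3 to 9 lower with the shRNA, 7 to 12 and 3 to 5 with dnTcf4, 0 to 1 and 6 to 9 in the difference, and 2 to 3 and 17 to 22 between the uninduced lines. The genes called in all ran from 3543 to 4337, 3739 to 4611, 1754 to 2181 and 3775 to 4746 in the same order. With the replicate number as a block, 6 members were higher and 6 lower with the shRNA, 11 and 4 with dnTcf4, 0 and 7 in the difference, and 2 and 19 between the uninduced lines, and 3950, 4188, 1836 and 4301 genes were called. Under the block INSIG1, MSMO1 and ACACA gained a call with the shRNA (adjusted p = 0.018, 0.030 and 0.036), TM7SF2 with dnTcf4 (0.043) and LSS in the difference (0.038). INSIG2 lost its call with the shRNA (0.077), NPC1 in the difference (0.052) and PMVK between the lines (0.053). Over all genes, same-numbered arrays of a line deviated from their group means with correlations of -0.078 to 0.038, and not every array correlated best with its own number, so the arrays were not treated as paired. Over the members, the median deviations of the uninduced and the induced array of a number had the same sign for every number within each line. Low signals limit the probe sets near the filter, whose log2 values spread most.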
